A study of Mus musculus with 12 samples.

Results

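Heat shock chaperones of the cytosol and the mitochondria were followed in MIN6 cells, a mouse insulinoma line used as a model of pancreatic beta cells, after depletion of the beta-cell transcription factor Pdx1. Membership was set by gene symbol alone: the HSP70 and HSP110 genes (Hspa, Hsph1), the cytosolic HSP90 genes (Hsp90a), the small heat shock proteins (Hspb), the mitochondrial chaperonin pair (Hspd1, Hspe1), the TRiC subunits (Tcp1, Cct2 to Cct8), the J proteins (Dnaja, Dnajb, Dnajc) and Bag1 to Bag6. Hspa5, Dnajb9, Dnajb11, Dnajc3 and Dnajc10, which encode proteins of the endoplasmic reticulum (ER), were left out. The rule found 69 of the 12643 genes with counts, made up of 13 HSP70 and HSP110 genes, 2 HSP90 genes, 4 small heat shock protein genes, 2 mitochondrial chaperonin genes, 8 TRiC genes, 34 J protein genes and 6 BAG genes. A further 13 protein-coding symbols fit the rule and were not analysed here for lack of counts, among them Dnajb5, Dnajb13 and Hspb7. The label of cytosolic and mitochondrial chaperones holds for most members but not for all, because the symbol rule keeps 8 genes whose products are known from the ER membrane or lumen: Hspa13, Dnajb12, Dnajb14, Dnajc1, Dnajc14, Dnajc16, Dnajc18 and Dnajc25.

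The 4 groups of 3 libraries were IP RNA from cells given Pdx1 siRNA, IP RNA from cells given the control siRNA labelled NT, total RNA from cells given Pdx1 siRNA, and total RNA from cells given NT siRNA. IP RNA is the RNA bound to ribosomes recovered by TRAP, translating ribosome affinity purification, in which a tagged ribosomal protein is pulled down. All cells were MIN6 at passage 29, grown in high glucose DMEM, nucleofected (AMAXA) and harvested 72 h later. Neither the tagged protein nor whether a group's libraries came from separate cultures is stated in the labels, so the spread behind each p-value may be technical only.

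HSP70 proteins bind short hydrophobic stretches of unfolded or newly made proteins and release them in a cycle driven by ATP. J proteins bring clients and start ATP hydrolysis, while HSP110 proteins and several BAG proteins exchange the nucleotide and so end the cycle. HSP90 finishes the folding of kinases and hormone receptors, TRiC folds actin and tubulin inside a closed chamber, small heat shock proteins hold unfolded proteins without ATP, and Hspd1 with its lid Hspe1 folds proteins imported into mitochondria. Heat shock factor 1 (HSF1) raises the inducible members by binding heat shock elements, inverted repeats of the letters GAA, in their promoters. Beta cells make proinsulin in large amounts, which folds in the ER and so outside the compartments of most of these chaperones.

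Promoters are shown here because heat shock elements are the shared regulatory feature that part of the family is known for. RefSeq promoter windows (GRCm38.p6, 250 bases before to 50 bases after a start) were matched by symbol for 55 of the 69 members. The longer motif searched was GAA, TTC and GAA in this order with 2 free letters (NN) between neighbours, on both strands, where the other strand reads TTC, GAA and TTC. It was present in windows of 4 of these 55 members (7.27%), against 60 of 10081 tested genes with a window (0.595%) and 0.603% of all 32851 windows. The 4 members were Hspd1, Hspe1, Hsph1 and Dnajb6. Hspd1 and Hspe1 have their matches in the same bases, and the match of Hsph1 lies after its start. The shorter motif, GAA and TTC with 2 free letters between them and 1 on each side, lies within the longer one and was found for 13 of 55 members (23.6%), against 6.67% of tested genes and 7.80% of all windows. The letters TTCNNGAA, added after the promoters had been seen, were found for 7 members (12.7%), against 8.06% of tested genes and 8.52% of all windows. A match describes letters in these windows and not a site bound by a factor. The promoters below are shown 5′ to 3′ on the strand of the named gene, with the motif in capitals.
Hspe1 (chr1:55088018-55088117, plus strand, 130 to 31 bases before the start): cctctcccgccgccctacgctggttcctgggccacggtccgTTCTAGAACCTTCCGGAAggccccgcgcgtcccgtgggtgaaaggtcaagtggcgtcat
Hspa1b (chr17:34959289-34959388, minus strand, 150 to 51 bases before the start): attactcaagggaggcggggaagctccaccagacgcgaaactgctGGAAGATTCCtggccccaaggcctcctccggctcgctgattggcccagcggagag
Hspb1 (chr5:135887766-135887865, plus strand, 153 to 54 bases before the start): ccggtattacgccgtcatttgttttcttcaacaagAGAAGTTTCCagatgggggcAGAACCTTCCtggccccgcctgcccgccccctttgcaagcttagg
Hspb6 (chr7:30553135-30553234, plus strand, 166 to 67 bases before the start): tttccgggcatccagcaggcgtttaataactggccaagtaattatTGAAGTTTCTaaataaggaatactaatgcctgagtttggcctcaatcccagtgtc
Dnaja4 (chr9:54699442-54699541, plus strand, 117 to 18 bases before the start): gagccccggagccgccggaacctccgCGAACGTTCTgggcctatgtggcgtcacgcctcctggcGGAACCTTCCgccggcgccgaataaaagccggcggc
Hspe1 carries the longer motif in a window that lies head to head with Hspd1, which is read from the opposite strand of the same bases. Hspa1b and its neighbour Hspa1a have the same 100 letters at this distance from their starts. Hspb1 and Dnaja4 hold the shorter motif at 2 places each, and Hspb6 at 1 place. These 5 promoters belong to genes that moved in different ways after Pdx1 depletion, as given with each gene below.

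Summed over genes, the 12 libraries held 29430690 to 45806807 counts, and the lowest total of a member over all libraries was 497 counts (Hspb1). Pdx1 served as the check of the labels: it had 50.6, 46.8 and 39.2 CPM in Pdx1 siRNA IP libraries, against 104, 115 and 111 CPM in NT IP libraries, and 47.6, 57.4 and 47.9 CPM in Pdx1 siRNA total RNA, against 118, 123 and 109.6 CPM in NT total RNA. The insulin genes, known targets of Pdx1, had log2 fold changes of −0.39 (Ins1) and −0.16 (Ins2) in total RNA and −0.28 and 0.04 in IP RNA. CPM are counts per 1000000 of the TMM-scaled library size, TMM being edgeR's scaling by trimmed means. All 8 beta-cell markers looked up were measured, while Gcg and Ppy were the measured markers of other islet cells and markers of acinar, duct, connective tissue, endothelial and immune cells were not analysed here. The summed level of Gcg and Ppy was 5253 to 5951 CPM in Pdx1 siRNA IP RNA, against 1494 to 1537 CPM in NT IP RNA, and 2881 to 3290 CPM in Pdx1 siRNA total RNA, against 751 to 785 CPM in NT total RNA; its part in the results was not tested. Within bulk RNA, fewer cells of a kind and less RNA per cell cannot be told apart. From an earlier look at these files it was known that NT IP replicate 3 goes with the 3 Pdx1 siRNA IP libraries, and not with NT IP replicates 1 and 2, where genes have copies of nearly the same sequence. This split is called the mapping batch below, as a name only, since the labels give no batch and its cause was not tested. Every Pdx1 siRNA IP library is on one side of the split, so it cannot be told apart from the siRNA in IP RNA except through NT IP replicate 3. A fit with this batch as a term gives the batch-adjusted values below, in which the siRNA effect in IP RNA rests on NT IP replicate 3 alone, assumed to vary like the other groups. A total of 8 members have a copy matching at least 50% of the transcript (Dnajc17, Hsp90aa1, Hspa1a, Hspa1b, Hspa8, Hspb1, Hspd1 and Hspe1), so their counts are uncertain. Below that cut-off, copies match 45.4% of Dnajb6, 35.4% of Dnaja1, 18.2% of Tcp1, 11.2% of Dnajc19 and 7.66% of Dnajc9. The counts of these genes may be affected too. Separately, 6 members share at least 20% of their exon bases with a neighbouring gene (Bag4, Dnaja4, Dnajc14, Dnajc30, Hspa1l and Tcp1), and whether strand was used in counting is not known here.

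The first question was which chaperone genes changed with Pdx1 depletion in total RNA. Most of the family was past the test. TRiC genes were mostly on the lower side, and several ER-located J protein genes on the higher side. Of 12 members grouped as heat-inducible after their values had been seen, 6 were called lower and 1 higher. By edgeR's quasi-likelihood test at an adjusted p under 0.05, 15 of 69 members were higher and 29 lower in Pdx1 siRNA cells. Among all 12643 genes 53% were called in either direction, 23.8% higher and 29.2% lower, so the share of members called higher (21.7%) was close to the background and the share called lower (42.0%) above it. The median log2 fold change was −0.15 over the members and −0.04 over all genes, and 49 of 69 members were below 0. The 3 Pdx1 siRNA libraries did not overlap the 3 NT libraries for 46 members, against 58.8% of all genes. Most changes were modest, and 2 of 69 members were called with a change of at least 2-fold, Hspb6 and Dnajc22, against 886 of all genes (7.01%).

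The same question in IP RNA gave 18 members higher and 35 lower. Of all genes 59.7% were called there, 29.2% higher and 30.4% lower, against 26.1% of members higher and 50.7% lower. The median log2 fold change was −0.22 over the members and −0.01 over all genes. Groups did not overlap for 57 members, against 64.9% of all genes, and 4 of 69 members were called with a change of at least 2-fold (Hspb6, Dnajc22, Hspa14 and Hsp90aa1), against 1197 of all genes (9.47%). A call in the same direction in both fractions was made for 13 members on the higher side and 24 on the lower side, which is 84.1% of the members called in total RNA and 69.8% of those called in IP RNA, against 81.6% and 72.5% over all genes. After batch adjustment 12 members (17.4%) were called higher and 18 (26.1%) lower in IP RNA, against 2603 (20.6%) and 2609 (20.6%) of all 12643 genes, and 30 of the 53 calls held. The share of members called lower in IP RNA was thus nearer to the background with the adjustment than without it. The calls lost were those of Bag4, Bag6, Cct3, Cct4, Cct5, Cct8, Tcp1, Dnaja1, Dnajb2, Dnajb4, Dnajb14, Dnajc4, Dnajc11, Dnajc13, Dnajc19, Dnajc21, Dnajc24, Dnajc25, Hsp90ab1, Hspa1b, Hspa1l, Hspa4 and Hspd1, and a change of one of these in IP RNA holds only without that adjustment.

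**Figure D1:**
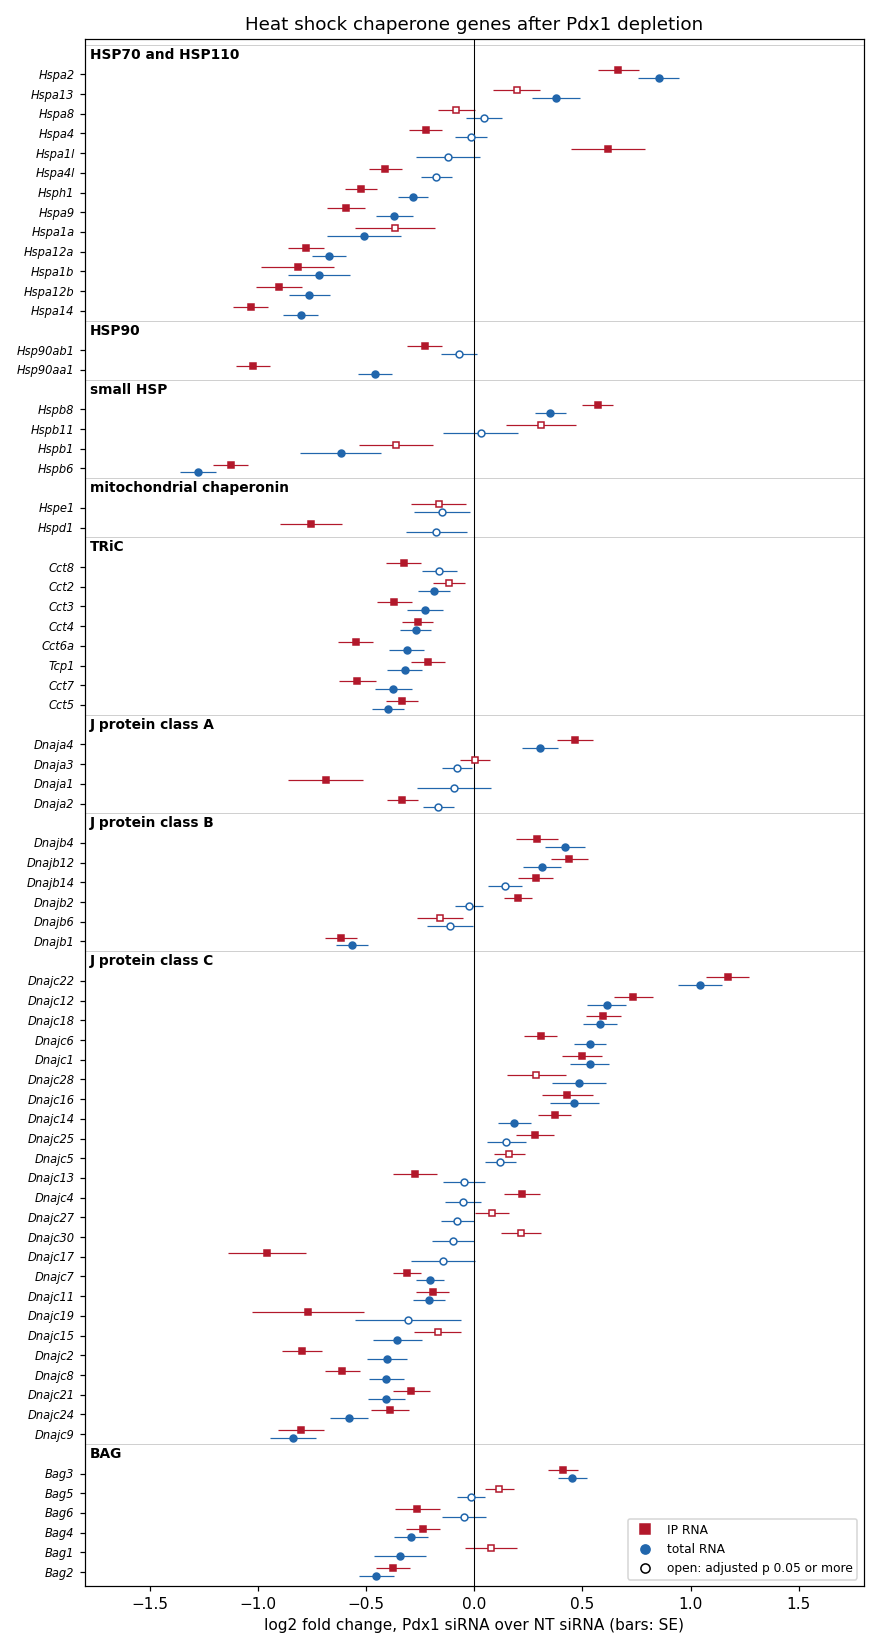
Log2 fold change of each member, Pdx1 siRNA over NT siRNA, in IP RNA (red squares) and total RNA (blue circles), grouped by role and ordered by the value in total RNA. Bars are standard errors of the edgeR fit on 3 libraries a group and open symbols mark an adjusted p of 0.05 or more; Hspb6 lies farthest to the left in total RNA at −1.28 and Dnajc22 farthest to the right at 1.04.

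Among the HSP70 and HSP110 genes, 7 of 13 fell and 2 rose in total RNA, and 8 fell and 2 rose in IP RNA. Of all genes 29.2% fell and 23.8% rose in total RNA, and 30.4% fell and 29.2% rose in IP RNA. Hspa8 (chromosome 9, 40801276 to 40805202), the constitutive cytosolic HSP70 gene and per length the highest of the 13 in 3 of the 4 groups, was not called in either fraction. It had 228, 203 and 207 CPM in Pdx1 siRNA IP RNA, against 231, 227 and 218 CPM in NT IP RNA. For Hspa8 the log2 fold change was −0.08 (SE 0.08, edgeR adjusted p = 0.414). In total RNA Hspa8 had 283, 348 and 325 CPM with Pdx1 siRNA, against 305, 321 and 301 CPM with NT siRNA. For Hspa8 the log2 fold change was 0.04 (SE 0.08, edgeR adjusted p = 0.683). The libraries of both groups overlapped in both fractions. Reads of Hspa8 may also come from copies that match 87.9% of the transcript.

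The stress-inducible pair Hspa1a and Hspa1b was scarce and on the lower side. Hspa1b (chromosome 17, 34956429 to 34959238) fell to 2.36 ± 0.365 CPM in Pdx1 siRNA total RNA, against 3.93 ± 0.299 CPM in NT total RNA (SD, n = 3 each; log2 fold change −0.72, SE 0.14, edgeR adjusted p = 0.000641). In IP RNA Hspa1b had 1.38, 1.44 and 1.83 CPM with Pdx1 siRNA, against 3.05, 2.94 and 2.27 CPM with NT siRNA (log2 fold change −0.82, SE 0.17, edgeR adjusted p = 0.000675), and the groups did not overlap. The batch-adjusted value in IP RNA was −0.54, SE 0.22, edgeR adjusted p = 0.0628. Hspa1a, whose reads cannot be parted from Hspa1b with certainty, was lower in total RNA (log2 fold change −0.51, SE 0.17, edgeR adjusted p = 0.0212) and not called in IP RNA (log2 fold change −0.37, SE 0.19, edgeR adjusted p = 0.0993). The call of Hspa1a in total RNA was lost without NT total replicate 1 or 2 or Pdx1 siRNA total replicate 1 or 3, where the adjusted p reached 0.13.

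Hspa14 (chromosome 2, 3488854 to 3512814), which in human cells forms the ribosome-associated complex with Dnajc2, showed the clearest fall of the HSP70 family. Its level was 29.1, 26.6 and 23.4 CPM in Pdx1 siRNA IP libraries, against 53.5, 55.8 and 52.4 CPM in NT IP libraries, 2.05-fold lower. For Hspa14 the log2 fold change was −1.03 (SE 0.08, edgeR adjusted p = 4.13e-08). In total RNA Hspa14 had 23.7, 23.1 and 20.7 CPM with Pdx1 siRNA, against 39.3, 39.8 and 38.5 CPM with NT siRNA, 1.75-fold lower. For Hspa14 the log2 fold change was −0.80 (SE 0.08, edgeR adjusted p = 8.21e-07). Every Pdx1 siRNA library lay below every NT library of its fraction. Batch-adjusted, Hspa14 in IP RNA was at −0.99, SE 0.11, edgeR adjusted p = 2.52e-06. Its partner Dnajc2 (zuotin in yeast) also fell, to 17.0 ± 1.59 CPM in Pdx1 siRNA IP RNA, against 29.5 ± 3.15 CPM in NT IP RNA. For Dnajc2 the log2 fold change was −0.80 (SE 0.09, edgeR adjusted p = 3.11e-06). In total RNA Dnajc2 had 17.3, 16.4 and 14.8 CPM with Pdx1 siRNA, against 21.4, 20.8 and 22.0 CPM with NT siRNA. For Dnajc2 the log2 fold change was −0.40 (SE 0.09, edgeR adjusted p = 0.00176). The libraries of Dnajc2 did not overlap in either fraction, and NT IP replicate 3 was the lowest of its group at 26.1 CPM.

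The distant HSP70 relatives Hspa12a and Hspa12b fell in both fractions. Hspa12a had 20.4, 19.7 and 16.8 CPM in Pdx1 siRNA IP RNA, against 33.4, 33.3 and 30.7 CPM in NT IP RNA. For Hspa12a the log2 fold change was −0.78 (SE 0.08, edgeR adjusted p = 1.43e-06). In total RNA Hspa12a had 38.4, 38.6 and 34.6 CPM with Pdx1 siRNA, against 57.5, 62.6 and 57.6 CPM with NT siRNA. For Hspa12a the log2 fold change was −0.67 (SE 0.08, edgeR adjusted p = 5.11e-06). Hspa12b averaged 3.72 ± 0.339 CPM in Pdx1 siRNA IP RNA and 6.92 ± 0.517 CPM in NT IP RNA (SD, n = 3 each; log2 fold change −0.90, SE 0.11, edgeR adjusted p = 3.49e-06). In total RNA Hspa12b averaged 5.39 ± 0.364 CPM with Pdx1 siRNA and 9.16 ± 0.714 CPM with NT siRNA. For Hspa12b the log2 fold change was −0.76 (SE 0.10, edgeR adjusted p = 8.67e-06). The groups of both genes were apart in both fractions.

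Hspa2 (chromosome 12, 76403812 to 76406938), an HSP70 gene best known from spermatogenesis, moved the other way. It rose to 40.0, 50.3 and 50.8 CPM in Pdx1 siRNA total RNA, against 25.5, 27.5 and 25.3 CPM in NT total RNA, 1.81-fold higher. For Hspa2 the log2 fold change was 0.85 (SE 0.09, edgeR adjusted p = 2.23e-06). In IP RNA Hspa2 had 43.8, 39.4 and 45.3 CPM with Pdx1 siRNA, against 28.8, 27.2 and 25.0 CPM with NT siRNA. For Hspa2 the log2 fold change was 0.67 (SE 0.09, edgeR adjusted p = 2.51e-05). Hspa13, whose product is a microsomal HSP70, was higher in total RNA (log2 fold change 0.38, SE 0.11, edgeR adjusted p = 0.00923) but not without Pdx1 siRNA total replicate 3 (adjusted p = 0.0523), and was not called in IP RNA (log2 fold change 0.20, SE 0.11, edgeR adjusted p = 0.14). Its counts come from a transcript that RefSeq lists as non-coding. Hspa1l, a gene mainly known from testis, was called higher in IP RNA (log2 fold change 0.62, SE 0.17, edgeR adjusted p = 0.00574), yet its groups overlapped at 2.52, 3.88 and 4.12 CPM with Pdx1 siRNA against 2.54, 1.96 and 2.44 CPM with NT siRNA, and 71.9% of its exon bases are shared with a gene on the opposite strand.

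The HSP110 genes, which serve HSP70 as exchange factors, were lower in IP RNA. Hsph1 (chromosome 5, 149616843 to 149636498) had 28.9, 27.1 and 25.3 CPM in Pdx1 siRNA IP RNA, against 39.8, 38.1 and 39.1 CPM in NT IP RNA. For Hsph1 the log2 fold change was −0.52 (SE 0.07, edgeR adjusted p = 1.73e-05). In total RNA Hsph1 had 43.1, 48.7 and 43.9 CPM with Pdx1 siRNA, against 53.4, 55.5 and 56.4 CPM with NT siRNA. For Hsph1 the log2 fold change was −0.28 (SE 0.07, edgeR adjusted p = 0.00314). Hsph1 is one of the 4 members with the longer motif, the letters TTCTGGAAAGTTC. They lie 36 to 48 or 15 to 27 bases after the start, depending on the window. Hspa4l fell in IP RNA (log2 fold change −0.41, SE 0.08, edgeR adjusted p = 0.000253) and was not called in total RNA (log2 fold change −0.18, SE 0.07, edgeR adjusted p = 0.0544). Hspa4 was called lower in IP RNA (log2 fold change −0.22, SE 0.08, edgeR adjusted p = 0.0185), a call lost without NT IP replicate 2 or Pdx1 siRNA IP replicate 3 (adjusted p up to 0.0919), and was at 103 ± 5.64 CPM in Pdx1 siRNA total RNA and 104 ± 2.82 CPM in NT total RNA. For Hspa4 the log2 fold change was −0.02 (SE 0.07, edgeR adjusted p = 0.877). Hspa9, the mitochondrial HSP70 gene, fell to 121, 125 and 135 CPM in Pdx1 siRNA IP RNA, against 197, 209 and 170.2 CPM in NT IP RNA. For Hspa9 the log2 fold change was −0.60 (SE 0.09, edgeR adjusted p = 3.6e-05). It also fell in total RNA, to 140.4, 163 and 147 CPM with Pdx1 siRNA, against 188, 201 and 193 CPM with NT siRNA. For Hspa9 the log2 fold change was −0.37 (SE 0.09, edgeR adjusted p = 0.00243).

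The cytosolic HSP90 genes differed in how far they moved. Hsp90aa1 (chromosome 12, 110691036 to 110696395), the heat-inducible form, had 46.6, 48.3 and 44.9 CPM in Pdx1 siRNA IP libraries, against 100.4, 99.8 and 84.0 CPM in NT IP libraries, 2.03-fold lower. For Hsp90aa1 the log2 fold change was −1.02 (SE 0.08, edgeR adjusted p = 3.55e-08). In total RNA Hsp90aa1 had 93.8, 102 and 97.7 CPM with Pdx1 siRNA, against 132, 138 and 133 CPM with NT siRNA, 1.38-fold lower. For Hsp90aa1 the log2 fold change was −0.46 (SE 0.08, edgeR adjusted p = 0.000145). No Pdx1 siRNA library reached an NT library of its fraction, and NT IP replicate 3 lay between. Batch-adjusted, Hsp90aa1 in IP RNA was at −0.85, SE 0.10, edgeR adjusted p = 2.99e-06. Hsp90ab1 (chromosome 17, 45567778 to 45573261), the constitutive form and per length the highest member in all 4 groups, had 746, 681 and 706 CPM in Pdx1 siRNA IP RNA, against 882, 837 and 781 CPM in NT IP RNA. For Hsp90ab1 the log2 fold change was −0.23 (SE 0.08, edgeR adjusted p = 0.0244). That call was lost without NT IP replicate 1 or 2 or Pdx1 siRNA IP replicate 2 (adjusted p up to 0.116). In total RNA Hsp90ab1 was not called (log2 fold change −0.07, SE 0.08, edgeR adjusted p = 0.489), and the groups overlapped.

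Of all counts on the 2 HSP90 genes, Hsp90aa1 held 6.16% ± 0.403 in Pdx1 siRNA IP RNA and 10.2% ± 0.473 in NT IP RNA, and 9.95% ± 0.173 in Pdx1 siRNA total RNA and 12.6% ± 0.104 in NT total RNA (SD, n = 3 each). The libraries of the siRNA groups did not overlap in either fraction. A two-sided exact permutation test gave p = 0.1 in each fraction, the smallest that 3 libraries against 3 allow. This share does not depend on how the libraries are scaled, but 68.7% of the Hsp90aa1 transcript matches pseudogenes.

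**Figure D2:**
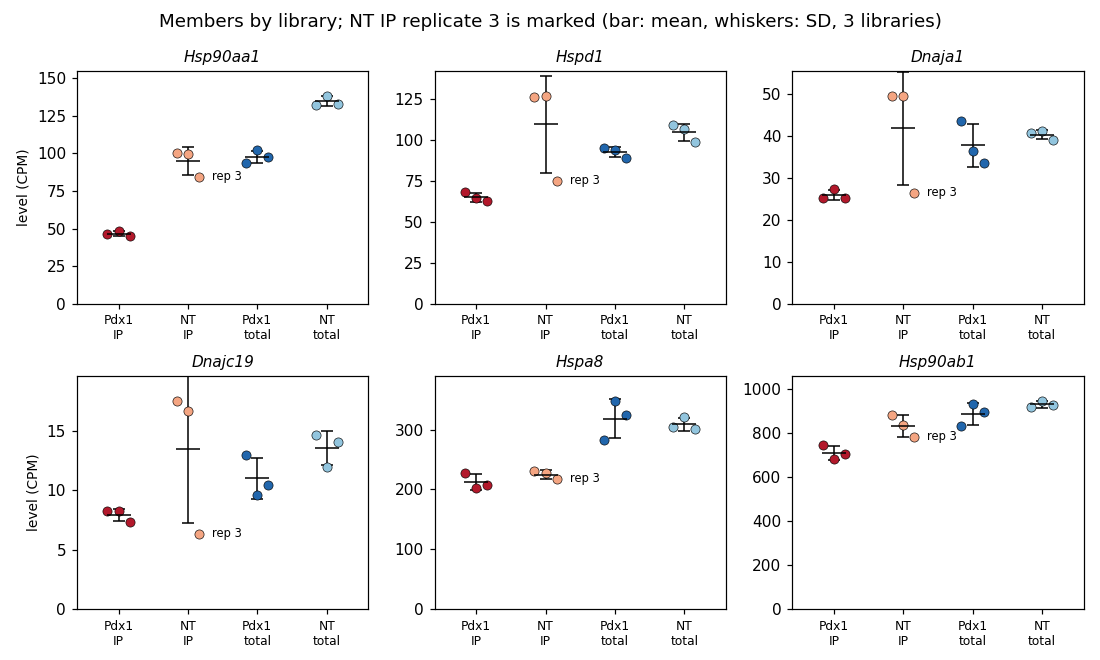
Level in CPM of 6 members in each library, with Pdx1 siRNA left of NT siRNA within IP and total RNA; bars are means and whiskers SD of 3 libraries. NT IP replicate 3 lies with the Pdx1 siRNA IP libraries for Dnaja1 (26.4 CPM) and Dnajc19 (6.34 CPM), and at 84.0 CPM between the groups for Hsp90aa1.

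Small heat shock protein genes moved in both directions. Hspb6 (chromosome 7, 30552535 to 30555443), which encodes HSP20, known in muscle for its phosphorylation by protein kinase A, showed the lowest log2 fold change of all members in both fractions. It had 13.1, 12.6 and 12.7 CPM in Pdx1 siRNA IP libraries, against 27.6, 28.0 and 28.1 CPM in NT IP libraries, 2.19-fold lower. For Hspb6 the log2 fold change was −1.13 (SE 0.08, edgeR adjusted p = 1.42e-08). In total RNA Hspb6 had 10.2, 8.45 and 8.30 CPM with Pdx1 siRNA, against 22.8, 20.3 and 22.3 CPM with NT siRNA, 2.43-fold lower. For Hspb6 the log2 fold change was −1.28 (SE 0.08, edgeR adjusted p = 5.2e-09). The libraries within each group lay close together, and the groups were far apart. Batch-adjusted, Hspb6 in IP RNA was at −1.14, SE 0.11, edgeR adjusted p = 4.68e-07.

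Hspb8 (chromosome 5, 116408491 to 116422864), the partner of Bag3 in the disposal of misfolded proteins by autophagy, rose. It had 49.3, 44.7 and 43.4 CPM in Pdx1 siRNA IP RNA, against 32.4, 30.0 and 30.0 CPM in NT IP RNA. For Hspb8 the log2 fold change was 0.57 (SE 0.07, edgeR adjusted p = 6.22e-06). In total RNA Hspb8 had 23.8, 21.7 and 21.8 CPM with Pdx1 siRNA, against 17.8, 17.8 and 17.1 CPM with NT siRNA. For Hspb8 the log2 fold change was 0.35 (SE 0.07, edgeR adjusted p = 0.000808). Bag3 itself rose as well, and its values follow with the BAG genes. Hspb1, the gene of the stress-inducible HSP25, was near the lower end of detection at 0.644, 0.554 and 0.828 CPM in Pdx1 siRNA total RNA, against 1.04, 0.991 and 1.06 CPM in NT total RNA. For Hspb1 the log2 fold change was −0.62 (SE 0.19, edgeR adjusted p = 0.0122). Its call was lost without NT total replicate 3 or Pdx1 siRNA total replicate 2 (adjusted p up to 0.0729), and in IP RNA it was not called (log2 fold change −0.36, SE 0.17, edgeR adjusted p = 0.0789). Hspb11, known as a subunit of the ciliary transport complex, was not called in total RNA (log2 fold change 0.03, SE 0.17, edgeR adjusted p = 0.902) or in IP RNA (log2 fold change 0.31, SE 0.16, edgeR adjusted p = 0.112).

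**Figure D3:**
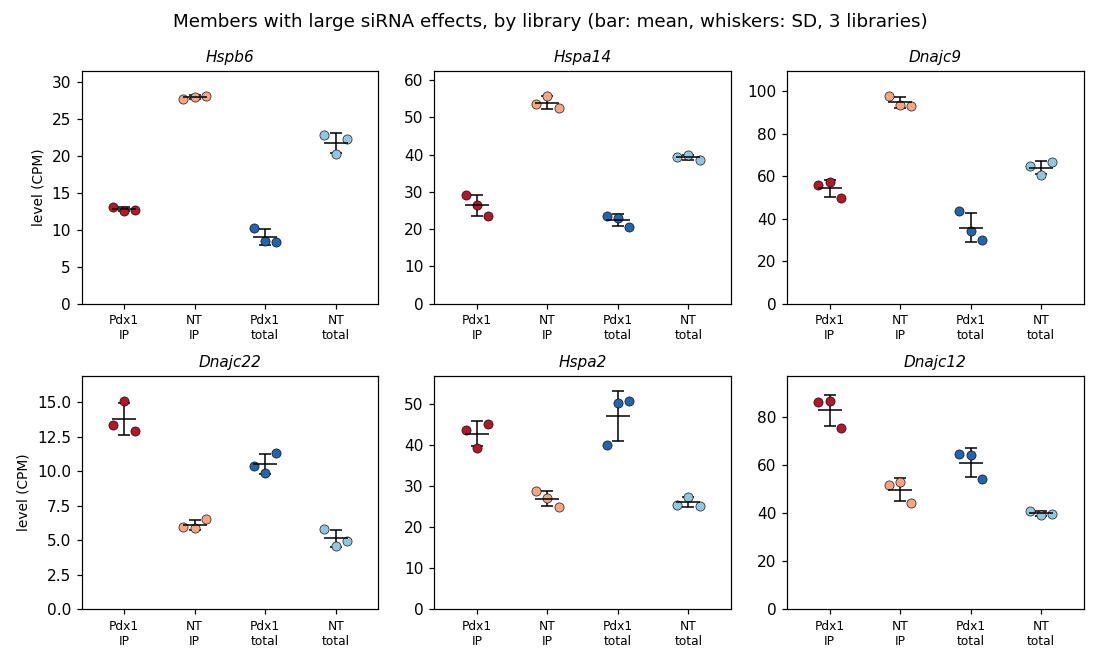
Level in CPM, in each library, of 6 members with large siRNA effects; Pdx1 siRNA stands left of NT siRNA within IP and total RNA, bars are means and whiskers SD of 3 libraries. All Pdx1 siRNA points of Hspb6, Hspa14 and Dnajc9 lie below the NT points of their fraction, and those of Dnajc22, Hspa2 and Dnajc12 above.

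The mitochondrial chaperonin genes Hspd1 (HSP60) and Hspe1 (HSP10), which share the head-to-head promoter printed above, gave no call in total RNA with all libraries and no batch term. Hspd1 had 94.9, 93.8 and 88.9 CPM in Pdx1 siRNA total RNA, against 109, 106 and 98.7 CPM in NT total RNA. For Hspd1 the log2 fold change was −0.18 (SE 0.14, edgeR adjusted p = 0.313), and it was called lower when batch-adjusted (−0.18, SE 0.07, edgeR adjusted p = 0.0477). In IP RNA Hspd1 had 67.9, 64.1 and 62.5 CPM with Pdx1 siRNA, against 126, 127 and 75.0 CPM with NT siRNA. For Hspd1 the log2 fold change was −0.75 (SE 0.14, edgeR adjusted p = 0.000348). NT IP replicate 3 stood far below the other NT IP libraries and above all Pdx1 siRNA IP libraries. The batch-adjusted value of Hspd1 was −0.21, SE 0.10, edgeR adjusted p = 0.108, and 71.1% of the transcript matches pseudogenes. Hspe1 had 60.0, 59.3 and 53.8 CPM in Pdx1 siRNA IP RNA, against 74.6, 64.2 and 55.3 CPM in NT IP RNA (log2 fold change −0.17, SE 0.13, edgeR adjusted p = 0.281), and was not called in total RNA either (log2 fold change −0.15, SE 0.13, edgeR adjusted p = 0.346). Of this pair 1 gene was called lower in total RNA without NT IP replicate 3 (Hspd1) and 1 without Pdx1 siRNA total replicate 1 (Hspe1).

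All 8 TRiC subunit genes had a log2 fold change below 0 in both fractions. In total RNA 7 of 8 were called lower, and none higher, with a median log2 fold change of −0.29 and a range of −0.40 to −0.16. In IP RNA 7 of 8 were again called lower, with a median of −0.33 and a range of −0.55 to −0.12. Of all genes 29.2% were called lower in total RNA and 30.4% in IP RNA. Summed over the 8 genes and corrected for length, the level was 437 ± 21.8 CPM per kb in Pdx1 siRNA IP RNA and 544 ± 23.7 CPM per kb in NT IP RNA, and 385 ± 21.1 CPM per kb in Pdx1 siRNA total RNA and 470.1 ± 19.7 CPM per kb in NT total RNA (SD, n = 3 each). For the summed CPM a two-sided exact permutation test gave p = 0.1 in each fraction, the smallest possible with 3 against 3.

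Cct7 fell in both fractions, with 152, 136 and 136 CPM in Pdx1 siRNA IP RNA, against 210.5, 216 and 191 CPM in NT IP RNA. For Cct7 the log2 fold change was −0.54 (SE 0.09, edgeR adjusted p = 6.47e-05). In total RNA Cct7 had 133, 152 and 133 CPM with Pdx1 siRNA, against 182, 192 and 168 CPM with NT siRNA. For Cct7 the log2 fold change was −0.38 (SE 0.09, edgeR adjusted p = 0.00172). Cct6a had 72.4, 70.5 and 64.3 CPM in Pdx1 siRNA IP RNA, against 101, 109 and 93.5 CPM in NT IP RNA. For Cct6a the log2 fold change was −0.55 (SE 0.08, edgeR adjusted p = 3.45e-05), and in total RNA −0.31 (SE 0.08, edgeR adjusted p = 0.00422). Cct5 had 108, 111 and 102 CPM in Pdx1 siRNA total RNA, against 143, 143 and 136 CPM in NT total RNA. For Cct5 the log2 fold change was −0.40 (SE 0.07, edgeR adjusted p = 0.000283), and in IP RNA −0.33 (SE 0.07, edgeR adjusted p = 0.00101). All 3 had groups that did not overlap in either fraction.

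The other subunits showed smaller differences. Tcp1 (chromosome 17, 12916329 to 12925067), the founding subunit, fell to 143 ± 13.04 CPM in Pdx1 siRNA total RNA, against 179 ± 2.71 CPM in NT total RNA. For Tcp1 the log2 fold change was −0.32 (SE 0.08, edgeR adjusted p = 0.00341), and in IP RNA −0.21 (SE 0.08, edgeR adjusted p = 0.0314). Cct4 fell in total RNA (log2 fold change −0.27, SE 0.07, edgeR adjusted p = 0.00542) and in IP RNA (log2 fold change −0.26, SE 0.07, edgeR adjusted p = 0.00589). Cct3 fell in IP RNA (log2 fold change −0.37, SE 0.08, edgeR adjusted p = 0.00117) and in total RNA (log2 fold change −0.23, SE 0.08, edgeR adjusted p = 0.0278). Cct8 was called in IP RNA alone (log2 fold change −0.33, SE 0.08, edgeR adjusted p = 0.00283; total RNA, log2 fold change −0.16, SE 0.08, edgeR adjusted p = 0.106), and Cct2 in total RNA alone (log2 fold change −0.19, SE 0.07, edgeR adjusted p = 0.0418; IP RNA, log2 fold change −0.12, SE 0.07, edgeR adjusted p = 0.181), and no difference between the fractions was called for either. Calls that needed all libraries were those of Cct2 in total RNA (lost without any NT library or Pdx1 siRNA IP replicate 1 or 3 or Pdx1 siRNA total replicate 3, adjusted p up to 0.275), of Cct3 in total RNA (lost without any NT total library or Pdx1 siRNA total replicate 1 or 3, up to 0.241), and of Tcp1 in IP RNA (lost without any NT library or Pdx1 siRNA IP replicate 3, up to 0.122). After batch adjustment 2 of 8 were called in IP RNA, Cct6a and Cct7, and 6 in total RNA, without Cct2. The share of all genes called lower in IP RNA was then 20.6%, so the 2 of 8 there were near the background.

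**Figure D4:**
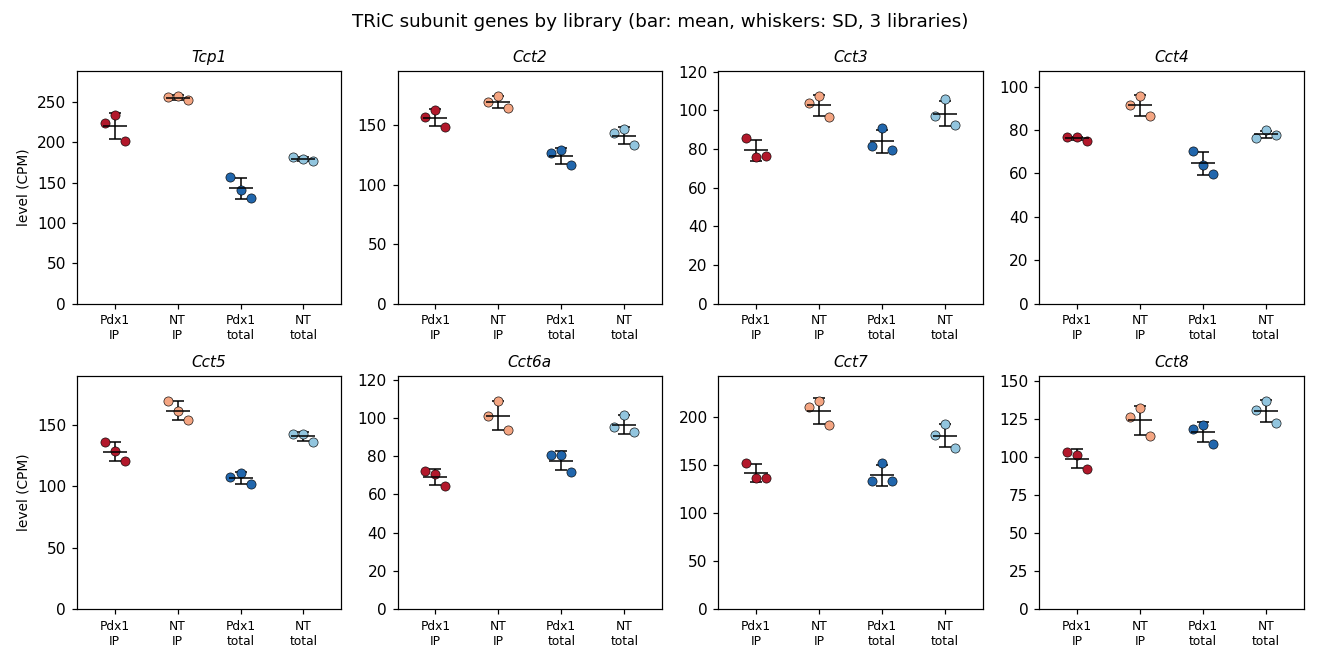
Level in CPM of the 8 TRiC subunit genes in each library, with Pdx1 siRNA left of NT siRNA within IP and total RNA; bars are means and whiskers SD of 3 libraries. Means were lower with Pdx1 siRNA for all 8 genes in both fractions, and 7 of 8 were called lower in each.

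Of the 34 J protein genes, 11 (32.4%) were called higher and 9 (26.5%) lower in total RNA, against 23.8% and 29.2% of all genes. In IP RNA 14 (41.2%) were higher and 13 (38.2%) lower, against 29.2% and 30.4%. Batch-adjusted, 9 (26.5%) were higher and 7 (20.6%) lower in IP RNA, against 20.6% of all genes in each direction. Of the 27 J protein genes outside the ER set, 22.2% were higher and 33.3% lower in total RNA. In IP RNA 25.9% of these 27 were higher and 48.1% lower, and batch-adjusted 14.8% and 25.9%. The ER set was chosen after its values had been seen. In class A, whose proteins carry clients to HSP70, Dnaja4 (chromosome 9, 54698848 to 54716317) rose to 31.9, 34.6 and 30.0 CPM in Pdx1 siRNA IP RNA, against 22.9, 23.1 and 23.8 CPM in NT IP RNA. For Dnaja4 the log2 fold change was 0.47 (SE 0.08, edgeR adjusted p = 0.000188), and in total RNA 0.30 (SE 0.08, edgeR adjusted p = 0.00593). Its promoter window holds the shorter motif at 2 places, and 52.6% of its exon bases are shared with Wdr61 on the opposite strand. Dnaja2 was lower in IP RNA (log2 fold change −0.33, SE 0.07, edgeR adjusted p = 0.00102) and not called in total RNA (log2 fold change −0.17, SE 0.07, edgeR adjusted p = 0.0649). Dnaja3, the mitochondrial class A gene, was not called in total RNA (log2 fold change −0.08, SE 0.07, edgeR adjusted p = 0.343) or in IP RNA (log2 fold change 0.00, SE 0.07, edgeR adjusted p = 0.961). Dnaja1, a major cytosolic partner of HSP70, had 25.2, 27.3 and 25.3 CPM in Pdx1 siRNA IP RNA, against 49.6, 49.5 and 26.4 CPM in NT IP RNA. For Dnaja1 the log2 fold change was −0.69 (SE 0.17, edgeR adjusted p = 0.00326). NT IP replicate 3 lay among the Pdx1 siRNA libraries, and the batch-adjusted value was −0.02, SE 0.12, edgeR adjusted p = 0.909. In total RNA Dnaja1 had 43.5, 36.3 and 33.6 CPM with Pdx1 siRNA, against 40.8, 41.1 and 39.2 CPM with NT siRNA. For Dnaja1 the log2 fold change was −0.10 (SE 0.17, edgeR adjusted p = 0.665).

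In class B, Dnajb1 (chromosome 8, 83608175 to 83612653), the heat-inducible HSP40 gene, fell in both fractions. It had 27.7, 26.7 and 23.7 CPM in Pdx1 siRNA IP libraries, against 40.3, 40.2 and 39.3 CPM in NT IP libraries. For Dnajb1 the log2 fold change was −0.62 (SE 0.07, edgeR adjusted p = 3.78e-06). In total RNA Dnajb1 had 20.3, 21.8 and 19.1 CPM with Pdx1 siRNA, against 30.2, 29.9 and 30.7 CPM with NT siRNA. For Dnajb1 the log2 fold change was −0.57 (SE 0.07, edgeR adjusted p = 1.18e-05). The groups were far apart in both, and the batch-adjusted value in IP RNA was −0.60, SE 0.10, edgeR adjusted p = 0.000252. Dnajb4 rose in total RNA (log2 fold change 0.42, SE 0.09, edgeR adjusted p = 0.00147), and its call in IP RNA (log2 fold change 0.29, SE 0.10, edgeR adjusted p = 0.0174) was lost without NT IP replicate 1 or Pdx1 siRNA IP replicate 1 (adjusted p up to 0.122). Dnajb6, known to hold back protein aggregation and with the longer motif in its promoter, was not called in total RNA (log2 fold change −0.11, SE 0.11, edgeR adjusted p = 0.399) or in IP RNA (log2 fold change −0.16, SE 0.10, edgeR adjusted p = 0.203). Dnajb2 was called higher in IP RNA (log2 fold change 0.20, SE 0.06, edgeR adjusted p = 0.0146), except without Pdx1 siRNA IP replicate 1 (adjusted p = 0.0909).

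Class C, in which the J domain is joined to varied other parts, held the member with the highest fold change. Dnajc22 (chromosome 15, 99099134 to 99104709), whose fruit fly counterpart acts in endocytosis, had 13.3, 15.1 and 12.9 CPM in Pdx1 siRNA IP libraries, against 5.93, 5.89 and 6.53 CPM in NT IP libraries, 2.25-fold higher. For Dnajc22 the log2 fold change was 1.17 (SE 0.10, edgeR adjusted p = 1.07e-07). In total RNA Dnajc22 had 10.4, 9.88 and 11.3 CPM with Pdx1 siRNA, against 5.82, 4.60 and 4.95 CPM with NT siRNA, 2.06-fold higher. For Dnajc22 the log2 fold change was 1.04 (SE 0.10, edgeR adjusted p = 4.75e-07). Dnajc12, a cochaperone of the aromatic amino acid hydroxylases, rose to 86.2, 86.8 and 75.6 CPM in Pdx1 siRNA IP RNA, against 51.9, 53.1 and 44.2 CPM in NT IP RNA. For Dnajc12 the log2 fold change was 0.74 (SE 0.09, edgeR adjusted p = 5.68e-06), and in total RNA 0.61 (SE 0.09, edgeR adjusted p = 4.39e-05). For both genes every Pdx1 siRNA library lay above every NT library of its fraction. Dnajc6, the gene of auxilin, which strips clathrin coats from vesicles, had 56.9, 61.8 and 65.7 CPM in Pdx1 siRNA total RNA, against 40.5, 42.5 and 44.2 CPM in NT total RNA. For Dnajc6 the log2 fold change was 0.54 (SE 0.07, edgeR adjusted p = 2.35e-05), and in IP RNA 0.31 (SE 0.08, edgeR adjusted p = 0.0029). Dnajc5, the gene of cysteine string protein on secretory vesicles, was not called in total RNA (log2 fold change 0.12, SE 0.07, edgeR adjusted p = 0.174) or in IP RNA (log2 fold change 0.16, SE 0.07, edgeR adjusted p = 0.0654).

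The lowest fold change of class C in total RNA was that of Dnajc9 (chromosome 14, 20384638 to 20388910), a histone chaperone in human cells. It had 55.8, 57.4 and 49.8 CPM in Pdx1 siRNA IP RNA, against 97.8, 93.5 and 93.0 CPM in NT IP RNA. For Dnajc9 the log2 fold change was −0.80 (SE 0.11, edgeR adjusted p = 1.31e-05). In total RNA Dnajc9 had 43.5, 34.2 and 29.9 CPM with Pdx1 siRNA, against 65.0, 60.5 and 66.8 CPM with NT siRNA (log2 fold change −0.84, SE 0.11, edgeR adjusted p = 1.14e-05), and neither fraction showed overlap. Dnajc8, a spliceosome-associated J protein gene, fell in total RNA (log2 fold change −0.41, SE 0.08, edgeR adjusted p = 0.000596) and IP RNA (log2 fold change −0.61, SE 0.08, edgeR adjusted p = 1.28e-05). Dnajc24, needed for the diphthamide modification of elongation factor 2, fell in total RNA (log2 fold change −0.58, SE 0.09, edgeR adjusted p = 5.47e-05) and IP RNA (log2 fold change −0.39, SE 0.09, edgeR adjusted p = 0.00133). Dnajc21, known for the maturation of the large ribosomal subunit, fell in total RNA (log2 fold change −0.41, SE 0.09, edgeR adjusted p = 0.000944) and IP RNA (log2 fold change −0.29, SE 0.09, edgeR adjusted p = 0.0083). Dnajc7 fell in IP RNA (log2 fold change −0.31, SE 0.06, edgeR adjusted p = 0.00074) and in total RNA (log2 fold change −0.20, SE 0.06, edgeR adjusted p = 0.0145), there except without NT total replicate 1 or 2 (adjusted p up to 0.15). Dnajc17 was scarce, with 1.22, 1.02 and 1.04 CPM in Pdx1 siRNA IP RNA, against 2.38, 2.17 and 1.77 CPM in NT IP RNA (log2 fold change −0.96, SE 0.18, edgeR adjusted p = 0.000349), and 90.5% of its transcript matches a pseudogene. Dnajc4 (log2 fold change 0.22, SE 0.08, edgeR adjusted p = 0.0317) and the endosomal J protein gene Dnajc13 (log2 fold change −0.27, SE 0.10, edgeR adjusted p = 0.0315) were called in IP RNA alone. The call of Dnajc4 was lost without NT IP replicate 2 or Pdx1 siRNA IP replicate 1 or 3 (adjusted p up to 0.145), and that of Dnajc13 without NT IP or Pdx1 siRNA IP replicate 1 or 2 (up to 0.111). Dnajc28 was called in total RNA alone (log2 fold change 0.48, SE 0.12, edgeR adjusted p = 0.00417). Neither Dnajc27 (log2 fold change −0.08 in total RNA and 0.08 in IP RNA) nor Dnajc30 (−0.10 and 0.22) was called.

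The 8 members with ER products were looked at together after their values had been seen, so their count is a description only. In total RNA 6 of 8 were called higher and none lower, and in IP RNA 7 higher and none lower. Of all genes 23.8% were higher in total RNA and 29.2% in IP RNA. After batch adjustment 5 were called higher in each fraction, against 3052 of 12643 genes in total RNA and 2603 in IP RNA. Dnajc18, an ER membrane J protein gene, had 98.3, 93.9 and 112 CPM in Pdx1 siRNA IP RNA, against 68.2, 66.9 and 65.8 CPM in NT IP RNA. For Dnajc18 the log2 fold change was 0.60 (SE 0.08, edgeR adjusted p = 1.2e-05), and in total RNA 0.58 (SE 0.08, edgeR adjusted p = 1.89e-05). Dnajc1 had 92.7, 103 and 120.0 CPM in Pdx1 siRNA total RNA, against 68.6, 74.0 and 75.4 CPM in NT total RNA. For Dnajc1 the log2 fold change was 0.53 (SE 0.09, edgeR adjusted p = 0.000173), and in IP RNA 0.50 (SE 0.09, edgeR adjusted p = 0.00027). Every Pdx1 siRNA library of these 2 genes was above the NT libraries. Dnajc16 was higher by 0.46 in total RNA and 0.43 in IP RNA on the log2 scale (edgeR adjusted p = 0.00316 and 0.00568), and Dnajb12 by 0.31 and 0.44 (edgeR adjusted p = 0.00691 and 0.000487). Dnajc14 rose in IP RNA (log2 fold change 0.37, SE 0.07, edgeR adjusted p = 0.000571), and its call in total RNA (log2 fold change 0.18, SE 0.07, edgeR adjusted p = 0.0492) was lost without any NT IP or Pdx1 siRNA total library, NT total replicate 2 or Pdx1 siRNA IP replicate 2 (adjusted p up to 0.135). Dnajb14 (log2 fold change 0.28, SE 0.08, edgeR adjusted p = 0.00634) and Dnajc25 (log2 fold change 0.28, SE 0.09, edgeR adjusted p = 0.0124) were called in IP RNA alone. The call of Dnajc25 was lost without NT IP replicate 2 or Pdx1 siRNA IP replicate 3 (adjusted p up to 0.064).

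The 61 members left after taking out that ER set gave 9 higher and 29 lower in total RNA, and 11 higher and 35 lower in IP RNA. Of all genes 23.8% were higher and 29.2% lower in total RNA, and 29.2% and 30.4% in IP RNA. As the ER set was chosen after its values had been seen, the counts of the 61 are a description only. A mitochondrial set of 8 (Hspa9, Hspd1, Hspe1, Dnaja3, Dnajc11, Dnajc15, Dnajc19 and Dnajc30) was also grouped after its values had been seen. None of the 8 was called higher, 3 were lower in total RNA (Hspa9, Dnajc11 and Dnajc15) and 4 in IP RNA (Hspa9, Hspd1, Dnajc11 and Dnajc19). The set does not hold Dnajc28, called higher in total RNA, or Dnajc4, called higher in IP RNA, so these counts depend on which genes were chosen. Dnajc15, a J protein gene of the mitochondrial import motor, had 17.4, 13.2 and 14.1 CPM in Pdx1 siRNA total RNA, against 21.8, 16.1 and 19.2 CPM in NT total RNA, with overlap (log2 fold change −0.36, SE 0.11, edgeR adjusted p = 0.0162), and its call was lost without NT total replicate 1 or 3 or Pdx1 siRNA total replicate 2 or 3 (adjusted p up to 0.158). Dnajc19, of the same motor, had 8.26, 8.22 and 7.34 CPM in Pdx1 siRNA IP RNA, against 17.5, 16.7 and 6.34 CPM in NT IP RNA. For Dnajc19 the log2 fold change was −0.77 (SE 0.26, edgeR adjusted p = 0.0189). NT IP replicate 3 was the lowest of these 6 libraries, the call was lost without NT IP replicate 1 or 2 or Pdx1 siRNA IP replicate 3 (adjusted p up to 0.111), and the batch-adjusted value had the other sign (0.32, SE 0.17, edgeR adjusted p = 0.145). Dnajc11, of the inner membrane organising system, was called lower in total RNA (log2 fold change −0.21, SE 0.07, edgeR adjusted p = 0.0267) and in IP RNA (log2 fold change −0.19, SE 0.08, edgeR adjusted p = 0.0425), but the first call was lost without any NT total library, Pdx1 siRNA IP replicate 1 or Pdx1 siRNA total replicate 1 (adjusted p up to 0.203). The second was lost without any NT total library, NT IP replicate 1 or 2 or Pdx1 siRNA IP replicate 2 (adjusted p up to 0.211). Batch-adjusted, 5 of the 8 were lower in total RNA and 1 in IP RNA, Hspa9, against 3791 and 2609 of all 12643 genes.

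The 12 members grouped here as heat-inducible were also put together after their values had been seen. They include Hsp90ab1 and Hspa8, named above as constitutive. They leave out Hspb8, Dnaja4 and Dnajb4, which were called higher in both fractions without batch adjustment. In total RNA 6 were called lower (Hspa1a, Hspa1b, Hsph1, Hsp90aa1, Hspb1 and Dnajb1) and 1 higher, Bag3. In IP RNA 7 were lower (Hspa1b, Hsph1, Hsp90aa1, Hsp90ab1, Hspd1, Dnaja1 and Dnajb1) and again Bag3 higher. Of all genes 29.2% were called lower in total RNA and 30.4% in IP RNA. Batch-adjusted, 3 were called lower in IP RNA (Hsph1, Hsp90aa1 and Dnajb1), against 20.6% of all genes. Of the 4 members with the longer motif, Hsph1 fell in total RNA, and Hspd1, Hspe1 and Dnajb6 were not called there.

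The 6 BAG genes gave 1 higher and 3 lower in each fraction. Of all genes 23.8% were higher and 29.2% lower in total RNA, and 29.2% and 30.4% in IP RNA. Bag3 (chromosome 7, 128523583 to 128546981) had 42.5, 41.5 and 38.7 CPM in Pdx1 siRNA IP RNA, against 29.3, 30.9 and 32.0 CPM in NT IP RNA. For Bag3 the log2 fold change was 0.41 (SE 0.07, edgeR adjusted p = 0.000129). In total RNA Bag3 had 37.9, 42.4 and 39.4 CPM with Pdx1 siRNA, against 30.1, 29.1 and 28.2 CPM with NT siRNA. For Bag3 the log2 fold change was 0.45 (SE 0.07, edgeR adjusted p = 5.9e-05). The rise was of like size in both fractions, with no overlap of groups. Bag2, an inhibitor of the ubiquitin ligase Stub1, fell to 19.7 ± 2.22 CPM in Pdx1 siRNA total RNA, against 26.9 ± 1.55 CPM in NT total RNA. For Bag2 the log2 fold change was −0.45 (SE 0.08, edgeR adjusted p = 0.000224), and in IP RNA −0.38 (SE 0.08, edgeR adjusted p = 0.000789). Bag4 fell in total RNA (log2 fold change −0.29, SE 0.08, edgeR adjusted p = 0.006), and its call in IP RNA (log2 fold change −0.24, SE 0.08, edgeR adjusted p = 0.0186) was lost without NT IP replicate 1 or Pdx1 siRNA IP replicate 3 (adjusted p up to 0.108). Bag1 was called lower in total RNA (log2 fold change −0.35, SE 0.12, edgeR adjusted p = 0.0244) with overlapping groups, but not without NT total replicate 1 or 3 or Pdx1 siRNA total replicate 2 or 3 (adjusted p up to 0.154), and was not called in IP RNA (log2 fold change 0.08, SE 0.12, edgeR adjusted p = 0.597). Bag6, which guides tail-anchored proteins to the ER, was called lower in IP RNA (log2 fold change −0.26, SE 0.10, edgeR adjusted p = 0.0382), a call that 6 different single libraries ended when left out (NT IP replicates 2 and 3, NT total replicates 1 and 3, Pdx1 siRNA IP replicates 2 and 3; adjusted p up to 0.142). Bag5 was not called in total RNA (log2 fold change −0.02, SE 0.07, edgeR adjusted p = 0.856) or in IP RNA (log2 fold change 0.12, SE 0.07, edgeR adjusted p = 0.142).

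The genes around these chaperones were read from 5 lists. For comparison with each list, 29.2% of all genes were called lower and 23.8% higher in total RNA. In IP RNA the shares were 30.4% lower and 29.2% higher, and batch-adjusted 20.6% in each direction. The heat shock factor list had 4 measured genes, Hsf1, Hsf2, Hsf4 and Hsbp1, the last encoding a factor-binding protein and not a factor. Of these, 3 were called lower in total RNA and 2 in IP RNA, and Hsbp1 was called in neither. The third call in total RNA, that of Hsf2, was not stable. Hsf4 had 6.29, 5.79 and 6.51 CPM in Pdx1 siRNA total RNA, against 10.3, 11.1 and 9.82 CPM in NT total RNA. For Hsf4 the log2 fold change was −0.75 (SE 0.08, edgeR adjusted p = 1.41e-06), and in IP RNA −0.43 (SE 0.08, edgeR adjusted p = 0.000264). Hsf1, the main activator of the heat shock response, had 22.3, 22.6 and 20.2 CPM in Pdx1 siRNA total RNA, against 28.8, 26.3 and 28.6 CPM in NT total RNA (log2 fold change −0.36, SE 0.07, edgeR adjusted p = 0.000531), and was not called in IP RNA (log2 fold change −0.15, SE 0.07, edgeR adjusted p = 0.0841). Hsf2 was lower in IP RNA (log2 fold change −0.50, SE 0.09, edgeR adjusted p = 0.000126). In total RNA Hsf2 was just past the threshold (log2 fold change −0.20, SE 0.08, edgeR adjusted p = 0.0471), and 2 of the 4 genes were called there with RLE or upper-quartile scaling and by DESeq2. The Hsf2 call was kept without NT IP replicate 3 or Pdx1 siRNA total replicate 1 and lost without any 1 of the other 10 libraries (adjusted p up to 0.327).

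Of 20 cochaperone genes of HSP90 and HSP70, 8 fell and 1 rose in total RNA, and 9 fell and 1 rose in IP RNA, with median log2 fold changes of −0.16 in both. The count of 8 in total RNA was 5 without NT total replicate 1 or 3. Stip1, which hands clients from HSP70 to HSP90, had 70.6, 61.4 and 62.5 CPM in Pdx1 siRNA IP RNA, against 102, 105 and 103 CPM in NT IP RNA. For Stip1 the log2 fold change was −0.68 (SE 0.08, edgeR adjusted p = 1.98e-06), and in total RNA −0.49 (SE 0.07, edgeR adjusted p = 5.79e-05). Nudc fell in total RNA (log2 fold change −0.70, SE 0.08, edgeR adjusted p = 1.69e-06) and IP RNA (log2 fold change −0.56, SE 0.07, edgeR adjusted p = 1.39e-05), as did Tomm34 (−0.27 and −0.33; edgeR adjusted p = 0.00335 and 0.000585) and St13, an HSP70-interacting protein gene (−0.28 and −0.47; edgeR adjusted p = 0.00438 and 5.96e-05). These changes were in the direction of Hsp90aa1 and Hsph1.

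Of 11 genes of prefoldin, which delivers clients to TRiC, and of other TRiC partners, 5 fell and 1 rose in total RNA, and 4 fell and 1 rose in IP RNA. The count of 5 in total RNA was 3 with upper-quartile scaling, 2 without NT total replicate 1, and 3 without NT total replicate 2 or 3, Pdx1 siRNA IP replicate 1 or Pdx1 siRNA total replicate 2 or 3. Pdcl3 fell in total RNA (log2 fold change −0.44, SE 0.07, edgeR adjusted p = 0.000114) and IP RNA (log2 fold change −0.56, SE 0.07, edgeR adjusted p = 9.15e-06), Pfdn6 in total RNA (log2 fold change −0.51, SE 0.09, edgeR adjusted p = 0.000209) and IP RNA (log2 fold change −0.37, SE 0.09, edgeR adjusted p = 0.00169), and the prefoldin subunit gene Vbp1 in IP RNA (log2 fold change −0.54, SE 0.11, edgeR adjusted p = 0.000463). In total RNA the call of Vbp1 (log2 fold change −0.30, SE 0.11, edgeR adjusted p = 0.0284) was lost without each of those 6 libraries (adjusted p up to 0.143). Pdrg1 was the exception, with 96.0, 86.2 and 83.9 CPM in Pdx1 siRNA IP RNA, against 50.01, 44.5 and 50.4 CPM in NT IP RNA. For Pdrg1 the log2 fold change was 0.88 (SE 0.10, edgeR adjusted p = 2.34e-06), and in total RNA 0.50 (SE 0.10, edgeR adjusted p = 0.000567).

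Of 15 genes for other mitochondrial folding, import and protease factors, 5 were called lower and 3 higher in total RNA, and 4 lower and 2 higher in IP RNA. In total RNA the lower count was 3 with RLE scaling or DESeq2 and 2 with upper-quartile scaling. It was 2 without any 1 NT total library or Pdx1 siRNA total replicate 2 or 3, and 3 without Pdx1 siRNA IP replicate 1 or 3 or Pdx1 siRNA total replicate 1. The higher count was 0 without Pdx1 siRNA total replicate 3 and 3 or 4 without any other library. Batch-adjusted, 3 were lower and 1 higher in IP RNA. Atf5, a regulator of the mitochondrial unfolded protein response, had 40.4, 45.4 and 45.0 CPM in Pdx1 siRNA total RNA, against 91.1, 86.0 and 90.0 CPM in NT total RNA. For Atf5 the log2 fold change was −1.03 (SE 0.07, edgeR adjusted p = 1.71e-08), and in IP RNA −0.52 (SE 0.07, edgeR adjusted p = 1.87e-05). The matrix protease gene Lonp1 fell in total RNA (log2 fold change −0.37, SE 0.10, edgeR adjusted p = 0.00469) and in IP RNA (−0.41, edgeR adjusted p = 0.00213). Clpx fell in IP RNA (log2 fold change −0.42, SE 0.08, edgeR adjusted p = 0.000336) and was not called in total RNA (−0.14, edgeR adjusted p = 0.148). Htra2 rose in IP RNA (log2 fold change 0.60, SE 0.07, edgeR adjusted p = 3.67e-06). It also rose in total RNA (0.20, edgeR adjusted p = 0.0272), except without Pdx1 siRNA total replicate 3 (adjusted p = 0.118). Afg3l2 rose in total RNA (log2 fold change 0.27, SE 0.09, edgeR adjusted p = 0.0153), except without Pdx1 siRNA total replicate 3 (adjusted p = 0.0801). In IP RNA Afg3l2 was not called (0.14, edgeR adjusted p = 0.187).

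Of the 12 ER chaperone and cochaperone genes outside the members, 9 rose and none fell in total RNA, and 6 rose and none fell in IP RNA, with medians of 0.38 and 0.33 on the log2 scale. Without single libraries 7 to 9 rose in total RNA and 6 or 7 in IP RNA. The call of Pdia4 in total RNA (edgeR adjusted p = 0.0473) was lost in 7 of these fits and with batch adjustment (0.0553). That of Canx (0.0232) was lost without Pdx1 siRNA total replicate 3 (0.108). Dnajb9 had 534, 595 and 647 CPM in Pdx1 siRNA IP RNA, against 348, 339 and 263 CPM in NT IP RNA. For Dnajb9 the log2 fold change was 0.90 (SE 0.12, edgeR adjusted p = 1.32e-05). Sil1, the exchange factor of BiP, had 249, 290.5 and 318 CPM in Pdx1 siRNA total RNA, against 168, 187 and 166 CPM in NT total RNA (log2 fold change 0.72, SE 0.10, edgeR adjusted p = 3.07e-05), and Dnajc3 was higher by 0.50 in total RNA and 0.62 in IP RNA (log2; edgeR adjusted p = 0.000116 and 1.39e-05). Whether the ER list differs from the cytosolic members was not tested.

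The design also asks whether the siRNA effect differed between ribosome-bound and total RNA. No member was called by edgeR's test of that difference, against 29 of 12643 genes (0.229%, of which 0.174% higher and 0.0554% lower), and 14 members had an unadjusted p under 0.05, against 2155 of all genes. Hsp90aa1 came nearest (−0.56, SE 0.11, edgeR adjusted p = 0.0521 for the log2 difference, the change in IP RNA minus that in total RNA). It was called with RLE scaling (adjusted p = 0.0469), with upper-quartile scaling (0.0463), with the replicate number as a block (0.0176) and by DESeq2 (0.000106). It was also called without NT IP replicate 3 (0.00107), Pdx1 siRNA IP replicate 2 (0.0497) or Pdx1 siRNA total replicate 1 (0.0255). Over all genes the block gave 203 higher and 170 lower. The batch-adjusted difference was −0.39, SE 0.12, edgeR adjusted p = 0.403. The next in order were Dnajc17 (−0.81, SE 0.24, edgeR adjusted p = 0.109), Hspa1l (0.74, SE 0.23, edgeR adjusted p = 0.124), Dnajc2 (−0.39, SE 0.13, edgeR adjusted p = 0.149) and Hspd1 (−0.58, SE 0.20, edgeR adjusted p = 0.165). Without NT IP replicate 3, Dnaja1, Dnajc2, Dnajc17, Dnajc19 and Hspd1 were called as well, all more strongly lowered in IP RNA, with adjusted p between 0.000165 and 0.0358. For these members the outcome thus rests on how that 1 library is treated.

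Setting IP against total RNA asks which messages were richer or poorer in the ribosome-bound fraction. In Pdx1 siRNA cells 31 of 69 members were higher in IP RNA and 22 lower, against 75.1% of all genes called (36.3% higher and 38.7% lower). In NT cells 31 were higher and 17 lower, against 69.7% of all genes (33.8% higher and 35.9% lower). Groups did not overlap for 52 members in Pdx1 siRNA cells, against 73.5% of all genes, and for 53 in NT cells, against 77.5%. Median log2 ratios were 0.07 and 0.12 over members and −0.02 and −0.02 over all genes. Batch-adjusted, 12 members were called lower in IP RNA of Pdx1 siRNA cells, against 25.3% of all genes.

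By role, HSP70 and HSP110 genes were mostly poorer in IP RNA, 9 of 13 in Pdx1 siRNA cells and 9 of 13 in NT cells. With batch adjustment 37 of all 53 member calls in Pdx1 siRNA cells were kept, and that of Hspa9 was lost. All 4 small heat shock protein genes were richer under both siRNAs (batch-adjusted, 3 of 4 with Pdx1 siRNA, without Hspb1). Hspa8 had 228, 203 and 207 CPM in IP RNA of Pdx1 siRNA cells, against 283, 348 and 325 CPM in total RNA of these cells (log2 fold change −0.58, SE 0.08, edgeR adjusted p = 1.42e-05), and in NT cells the difference was −0.46, SE 0.08, edgeR adjusted p = 0.000187. Hsp90aa1 was lower in IP RNA, with a log2 fold change of −1.07 with Pdx1 siRNA and −0.51 with NT siRNA (edgeR adjusted p = 1.62e-08 and 3.28e-05). Hspa12a was also lower under both siRNAs (log2 fold change −0.97 and −0.87; edgeR adjusted p = 6.14e-08 and 2.61e-07). The lowest ratio belonged to Dnajc13, an endosomal J protein gene, with 24.2 ± 1.86 CPM in IP RNA and 57.0 ± 8.93 CPM in total RNA of Pdx1 siRNA cells (log2 fold change −1.24, SE 0.10, edgeR adjusted p = 4.21e-08), and 29.3 ± 1.46 CPM in IP RNA and 59.0 ± 2.73 CPM in total RNA of NT cells (log2 fold change −1.01, SE 0.10, edgeR adjusted p = 4.91e-07).

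On the rich side stood Dnajc15, with 34.8 ± 0.748 CPM in IP RNA and 14.9 ± 2.20 CPM in total RNA of Pdx1 siRNA cells (log2 fold change 1.23, SE 0.11, edgeR adjusted p = 1.36e-07), and 39.2 ± 3.15 CPM in IP RNA and 19.0 ± 2.85 CPM in total RNA of NT cells (log2 fold change 1.04, SE 0.11, edgeR adjusted p = 9.63e-07). Hspb8 was richer by 1.03 with Pdx1 siRNA and 0.81 with NT siRNA on the log2 scale (edgeR adjusted p = 9.46e-09 and 1.78e-07), Hspb11 by 1.13 and 0.86 (edgeR adjusted p = 1.82e-05 and 0.00029), and Hspe1 by 0.71 and 0.72 (edgeR adjusted p = 0.00015 and 0.000139). Tcp1 and Cct2 were richer in IP RNA under both siRNAs as well, Tcp1 by 0.62 and 0.51 (edgeR adjusted p = 4.72e-06 and 4.2e-05). Bag1 was richer by 0.99 and 0.57 (edgeR adjusted p = 2.43e-06 and 0.000587) and Bag6 poorer, with log2 fold changes of −0.89 and −0.67 (edgeR adjusted p = 1.45e-06 and 3.24e-05). The comparisons of IP with total RNA share libraries with those of the siRNAs.

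Short transcripts tended to be the richer ones in IP RNA. Spearman's rho between transcript length and the log2 ratio of IP to total RNA was −0.47 in Pdx1 siRNA cells and −0.53 in NT cells over the 69 members, which share the same 12 libraries, and −0.60 and −0.63 over 12525 genes with a length. Of the 9 members under 1500 bases, 7 were called richer and 1 poorer in Pdx1 siRNA cells, and 7 richer and none poorer in NT cells. Of the 18 members of 3500 bases or more, 4 were richer and 10 poorer under each siRNA. Dnajc15 departs from this order, being rich in IP RNA at 6193 bases. The correlation over all genes lay farther from 0 than that over the chaperones.

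**Figure D5:**
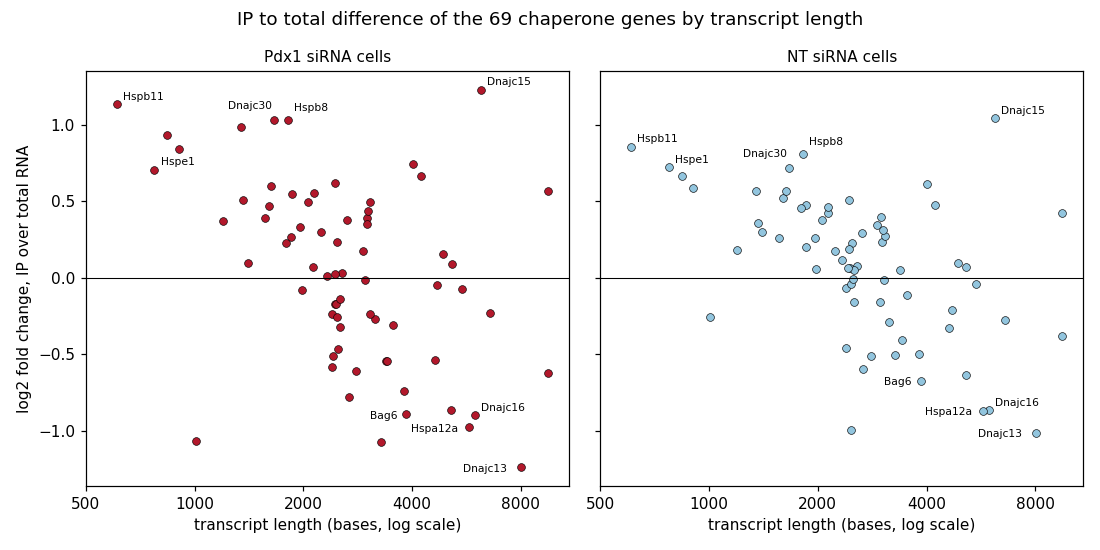
Log2 fold change of IP over total RNA (vertical) against transcript length in bases on a log axis (horizontal) for the 69 members, in Pdx1 siRNA cells on the left and NT cells on the right; each point is a gene. Short genes such as Hspb11 and Hspe1 lie above 0 and long ones such as Dnajc13 and Hspa12a below, with Dnajc15 as an exception.

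Per length the members spanned a wide range, with Hsp90ab1 highest at 282 ± 12.97 CPM per kb in Pdx1 siRNA IP RNA, 331 ± 20.1 CPM per kb in NT IP RNA, 352 ± 20.3 CPM per kb in Pdx1 siRNA total RNA and 369 ± 5.58 CPM per kb in NT total RNA (SD, n = 3 each). Hsp90ab1 alone held 15.9% ± 0.557 of the members' counts in Pdx1 siRNA IP RNA and 16.8% ± 0.440 in NT IP RNA. In NT total RNA the next in order were Hspa8 at 129 CPM per kb and Hspa13 at 105 CPM per kb, while the inducible Hspa1a and Hspa1b were at 0.862 and 1.40 CPM per kb. All members together took 0.363% ± 0.0253 of the counts in Pdx1 siRNA IP RNA and 0.497% ± 0.0294 in NT IP RNA, and 0.481% ± 0.0236 in Pdx1 siRNA total RNA and 0.609% ± 0.00768 in NT total RNA (SD, n = 3 each; two-sided exact permutation p = 0.1 in each fraction, the smallest possible). TMM factors moved with these shares, at 0.752 to 0.866 in Pdx1 siRNA IP RNA, 0.984 to 1.01 in NT IP RNA, 0.95 to 1.07 in Pdx1 siRNA total RNA and 1.22 to 1.23 in NT total RNA. After this scaling the members summed to 4480 ± 51.3 CPM in Pdx1 siRNA IP RNA and 4966 ± 223 CPM in NT IP RNA, and to 4758 ± 129 CPM in Pdx1 siRNA total RNA and 4974 ± 76.9 CPM in NT total RNA.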

How the data were processed

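The deposited data are raw counts per RefSeq transcript, 1 table for each of 12 libraries, which the authors made with TopHat2, featureCounts and mm10, per the submitters' processing notes (without versions, strand or the handling of multiply mapped reads). The tables share 17133 transcripts. A RefSeq gene table (GRCm38.p6) gave symbols for 16838, and the other 295 (0.577% to 0.834% of the counts) were not used. The transcript with the highest sum stood for its gene, giving 12643 genes. One edgeR 4.0.16 fit (R 4.3.3; quasi-likelihood, TMM, a mean per group, filterByExpr, which removed 0 genes) covered all 12 libraries and all genes, with Benjamini-Hochberg adjustment over all 12643 genes and calls at an adjusted p under 0.05. Standard errors derive from the F statistic. The test was tried on simulated data first. Levels are CPM from TMM-scaled sizes, with the SD over 3 libraries. A copy was any other GENCODE M21 transcript that minimap2 2.31 aligned over 100 bases or more with 95% identity or more. Lengths come from GENCODE M21 too. No molecular identifiers are described.

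The members and lists were chosen with earlier results of these data known. Named genes were 29 core HSP70, HSP110, HSP90, chaperonin, TRiC, J protein and BAG genes, then per comparison the 5 highest and 5 lowest called members averaging 5 CPM or more and up to 3 genes per list with the smallest p. Other members were named after their values were seen. Alternatives were RLE and upper-quartile factors, DESeq2 1.42.0, other expression filters, counts summed over transcripts, the replicate number as a block, the mapping batch as a term, only the libraries compared, and leaving out each library. Promoters come from RefSeq (GRCm38.p6).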

Additional observations from a re-analysis of the deposited data

How the results depend on the processing

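Counts of called members stayed within 1.5 times in every setting that kept all libraries, with these exceptions. With the mapping batch as a term, 18 members instead of 35 were lower with Pdx1 siRNA in IP RNA, and 12 instead of 22 were lower in IP than in total RNA of Pdx1 siRNA cells. In that comparison Dnaja1 (0.37), Hspd1 (0.24) and Hspa9 (0.0161) turned from a called negative log2 ratio to a positive one that was not called. These fits lean on NT IP replicate 3 alone, and the cause of the split was not tested. The difference of the siRNA effect between the fractions, with 0 members called, gave 1 lower member (Hsp90aa1) with RLE factors, 1 with upper-quartile factors, 1 with the replicate block and 1 with DESeq2. Over all genes that difference gave 22 higher and 7 lower, against 203 and 170 with the replicate block, 142 and 185 with DESeq2, 3 and 2 with the batch term, 20 lower with RLE and 28 lower with upper-quartile factors, and 2 to 243 higher and 2 to 328 lower without single libraries (most without NT IP replicate 3). Genes lower in IP than in total RNA of Pdx1 siRNA cells numbered 4897, against 3198 with the batch term.

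Leaving out 1 library at a time gave 13 to 15 members higher and 22 to 30 lower in total RNA, 15 to 20 higher and 29 to 35 lower in IP RNA, 0 to 1 higher (Bag1, without Pdx1 siRNA total replicate 1) and 0 to 6 lower for the difference, 29 to 32 higher and 19 to 23 lower for IP against total RNA with Pdx1 siRNA, and 29 to 35 higher and 16 to 17 lower with NT siRNA. The 6 lower members appeared without NT IP replicate 3. Over all 12643 genes these fits gave 2612 to 3271 higher and 2656 to 3865 lower in total RNA. In IP RNA they gave 3215 to 3913 higher and 3385 to 4018 lower. For IP against total RNA the counts were 4353 to 4672 higher and 4591 to 4932 lower with Pdx1 siRNA. With NT siRNA they were 3910 to 4599 higher and 3869 to 4658 lower. Of the called members, 34 of 44 in total RNA and 41 of 53 in IP RNA were called in every such fit.

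Same-numbered libraries of different groups correlated in their deviations from the group means at r = −0.10 to 0.51. Differently numbered ones correlated at r = −0.52 to 0.27. These ranges overlap, so whether the numbers pair the samples is not settled, and the main fit does not use them. With the replicate block 15 members were higher and 32 lower in total RNA, all 44 calls among them. Over all genes it gave 3242 higher and 3989 lower there. Hsp90aa1 had an edgeR adjusted p of 0.0176 for the difference with the block. Leaving out the members with a near-identical copy, chosen after seeing the data, gave 15 higher and 25 lower in total RNA. For comparison, 23.8% of all genes were higher and 29.2% lower there. No scaling moved the median of all genes by 0.1 (log2). Depth limits Hspb1, Hspa1a, Hspa1b, Hspa1l, Dnajc17 and Dnajc28 most, which averaged under 5 CPM.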
